A study of Homo sapiens with 6 samples.

Results

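The 29 genes described here make cholesterol, sense it, move it inside the cell or carry it out of the cell. They are a list of gene symbols covering these steps, with no measured value in the rule, drawn up when earlier results of these data were known. All 29 were found among the 29804 symbols of the count table, and all 29 passed the filter on low counts that left 14672 genes for testing. RNA was sequenced from 22Rv1 cells, an established prostate carcinoma epithelial line, in 3 groups of 2 biological replicates each. WT cells were left untreated and harvested at time 0. AM (age-matched) cells were kept in culture for 6 weeks without phleomycin, a drug that breaks DNA. 6WP cells were kept for the same 6 weeks and treated with 1 µg/ml phleomycin each week day. Per the study's methods each treatment lasted 1 hour, after which the cells were washed and given fresh medium. The genotype given is WT in all 3 groups, and all cells grew in RPMI medium with fetal bovine serum. 6WP cells differ from WT cells in both the drug and the time in culture, 6WP cells differ from AM cells in the drug, and in AM against WT the time in culture and the day of harvest cannot be told apart. All groups come from 1 cell line.

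Cells keep their cholesterol within narrow limits by a feedback on transcription. When the endoplasmic reticulum (ER) membrane is low in sterol, SCAP carries the transcription factor SREBP2, encoded by SREBF2, to the Golgi, where it is cut and released to the nucleus, and it raises the genes of sterol synthesis and uptake. When sterol is high, the INSIG proteins hold SCAP and SREBP2 in the ER, while oxysterols activate the nuclear receptor LXR, which raises the export pumps ABCA1 and ABCG1 and the ubiquitin ligase MYLIP. Of the 29 genes, 22 are known SREBP2 targets and 3 are known LXR targets.

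Promoter sequence was read for the genes from RefSeq on GRCh38.p14, as windows from 250 bases before to 50 bases after each start. Windows were matched for 25 of the 29 genes, 33 windows in all. SREBP2 binds the sterol regulatory element beside NF-Y, a factor that binds the CCAAT box. The CCAAT box, searched on both strands, was in the windows of 17 of the 19 SREBP2 target genes with a window (89.5%), of 39.7% of 27305 genes with a window and of 43.0% of the tested genes with one. Among the 6 other genes with a window, 3 held it (50.0%). The sterol regulatory element written as TCACNCCAC was found in SREBF2 alone, and in 1.39% of all genes. The looser form TCACNCNAC, which includes every match of the stricter one, was found in FDPS, HSD17B7 and SREBF2, and in 3.13% of all genes. The GC box GGGCGG was in 94.7% of the SREBP2 target genes, in all 6 of the other genes with a window (100.0%), in 48.3% of all genes and in 77.1% of the tested genes. The LXR element, a direct repeat with a spacer, was in none of the windows, and in 0.0256% of all genes. Only 2 of the 3 LXR target genes have a window, and an element this rare cannot set them apart from other genes. A match is a description of the letters in this window only. The stretches below, 100 bases each, lie before the start of 7 of the 10 genes that were lower in 6WP cells than in both WT and AM cells, and they are shown for the CCAAT boxes they hold. None is printed for the other 3: the window of CYP51A1 holds no CCAAT box, SQLE has no window, and the boxes of SC5D lie in an annotated exon. Each is written 5′ to 3′ on the strand of its gene. Capitals mark CCAAT boxes, written ATTGG where the box lies on the other strand, and in HSD17B7 also TCACCCGAC, a match of the looser element. In NSDHL 2 boxes on opposite strands overlap. The last line is the 30-base region around the sterol regulatory element of SREBF2 itself, in capitals.
HMGCS1, chr5:43313516-43313615, minus strand: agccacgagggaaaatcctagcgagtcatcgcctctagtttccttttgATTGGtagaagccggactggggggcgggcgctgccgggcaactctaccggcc
IDI1, chr10:1049185-1049284, minus strand: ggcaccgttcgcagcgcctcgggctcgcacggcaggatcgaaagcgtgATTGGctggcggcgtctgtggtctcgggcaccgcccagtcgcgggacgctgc
MSMO1, chr4:165327567-165327666, plus strand: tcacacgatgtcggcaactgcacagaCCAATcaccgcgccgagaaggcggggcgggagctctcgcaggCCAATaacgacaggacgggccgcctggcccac
NSDHL, chrX:152830867-152830966, plus strand: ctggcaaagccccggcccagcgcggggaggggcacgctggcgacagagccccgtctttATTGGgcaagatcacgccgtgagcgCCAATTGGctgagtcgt
HSD17B7, chr1:162790558-162790657, plus strand: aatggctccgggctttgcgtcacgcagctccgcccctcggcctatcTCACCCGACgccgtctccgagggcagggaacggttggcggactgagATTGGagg
INSIG1, chr7:155297660-155297759, plus strand: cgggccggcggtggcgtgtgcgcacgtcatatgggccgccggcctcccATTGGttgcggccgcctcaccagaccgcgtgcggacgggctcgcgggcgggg
STARD4, chr5:111512614-111512713, minus strand: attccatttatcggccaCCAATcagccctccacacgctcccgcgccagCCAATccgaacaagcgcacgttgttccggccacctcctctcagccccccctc
SREBF2, chr22:41832962-41832991, plus strand: tgacgcgccaTCACCCCACgcaccgcttcg

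Library totals ranged from 21222201 to 35311945 counts, and levels are given as CPM, the counts divided by the TMM-scaled library size. The smallest amount taken as detectable, 3 counts, was 0.0883 to 0.138 CPM, a floor for counting error only. The libraries of a group differed by more than counting error, with a chi-square per degree of freedom of 5.67 in WT, 9.14 in AM and 63.9 in 6WP. The 6WP libraries stood apart from each other, with a median absolute log2 difference over genes of 0.282 against 0.122 in WT and 0.131 in AM. The prostate epithelial markers were all above the floor in every library (9 of 9), with a summed level of 2682 to 2824 CPM in WT, 1737 to 2095 in AM and 2129 to 2953 in 6WP. PTPRC, which marks leukocytes, was at 0 in every library, and the endothelial markers stayed at or under the floor. CD68, the other gene of the leukocyte list, was above the floor in every library (2.31 to 3.66 CPM). In the fibroblast list COL1A1 was above it in every library (1.00 to 2.46 CPM), PDGFRB in 5 and PDGFRA in 2. The fibroblast list summed to between 1.27 and 3.04 CPM and the leukocyte list to between 2.31 and 3.66 CPM.

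In 6WP cells 10 of the 29 genes fell against WT cells and none rose. The genes that fell were HMGCS1, IDI1, SQLE, CYP51A1, MSMO1, NSDHL, HSD17B7, SC5D, INSIG1 and STARD4, all of them known SREBP2 targets. In bulk RNA, fewer cells with a transcript and less of it per cell cannot be told apart. Over all tested genes, 1.37% fell and 1.63% rose. The edgeR quasi-likelihood test counted 0 members higher, with 1 higher at an unadjusted p under 0.05, 1 by the Wald test of DESeq2 and 1 by the likelihood ratio test of edgeR. That gene is SCAP. At an unadjusted p under 0.05, 19 members were lower. The median log2 fold change was -0.58 over the 22 SREBP2 target genes, 0.07 over the 2 export genes and 0.01 over all tested genes. With only the 2 groups compared 4 members were lower, beside 36 genes of the whole table. All 10 calls were lost without either WT library, and those of IDI1, SQLE, CYP51A1, NSDHL, SC5D and INSIG1 without either AM library. The median of the SREBP2 target genes was -0.60 without either WT library and -0.59 without either AM library. It was -0.90 without 6WP replicate 1 and -0.53 without 6WP replicate 2. Without either WT library, no gene of the whole table passed in this comparison.

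Against AM cells, 21 members fell in 6WP cells and 1 rose. Besides the 10 genes named above, ACAT2, MVK, MVD, FDPS, FDFT1, LSS, EBP, DHCR7, TMEM97, ABCA1 and ABCG1 were lower, and MYLIP was higher. Among all tested genes 9.68% fell and 11.7% rose in this comparison. The SREBP2 target genes had a median log2 fold change of -1.02, with 19 of 22 lower, and the export genes one of -1.03, against 0.05 over all tested genes. The number of lower members was 9 without AM replicate 1 and 7 without AM replicate 2. It was 16 without either WT library, when FDPS, FDFT1, TMEM97, ABCA1 and ABCG1 were lost. HMGCS1, SQLE, MSMO1, NSDHL, HSD17B7, INSIG1 and STARD4 passed in all 15 alternatives, which included each library left out in turn. With upper quartile scaling 31.8% of the genes called in this comparison were lower, against 45.4% with TMM, and 17 members fell.

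In AM cells 4 members rose against WT cells and none fell. These were ACAT2, MVK, NSDHL and the exporter ABCG1. Among all tested genes 7.74% rose and 9.93% fell. The quasi-likelihood test of edgeR gave 0 members lower, with 2 lower at an unadjusted p under 0.05, 0 by DESeq2 and 1, MYLIP, by the likelihood ratio test. At an unadjusted p under 0.05, 13 members were higher. Here STARD4, with an unadjusted quasi-likelihood p of 0.0502, ranked 5194 of 14672 tested genes, both directions together. The SREBP2 target genes had a median log2 fold change of 0.34, and 19 of the 22 had a positive value, while the median of the export genes was 1.10 and that of all tested genes was -0.002. The 4 calls were lost without either WT library and without either AM library. With only the 2 groups compared, when the spread came from WT and AM alone, 18 members were higher. In that fit 3390 genes of the whole table were higher, against 1136 in the main fit. The summed prostate epithelial markers were also lower in AM than in WT, as given above, and their part in the result was not tested. Of the genes called in this comparison 56.2% were lower with TMM, 72.7% with upper quartile scaling and 69.5% with library size only. The 3 comparisons share libraries, so their values for a gene are not independent of each other.

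**Figure D1:**
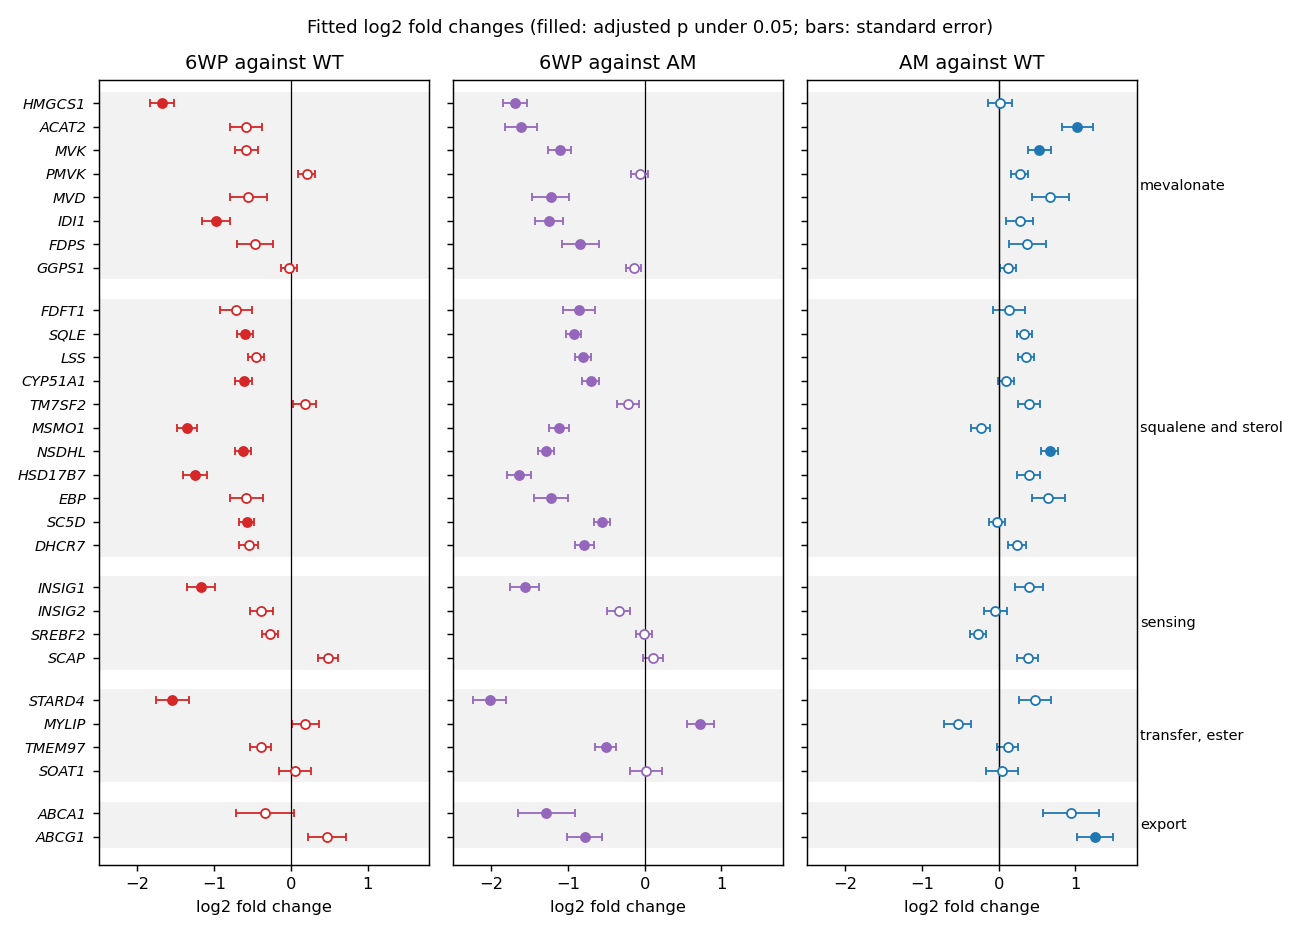
Fitted log2 fold change of each of the 29 genes for 6WP over WT, 6WP over AM and AM over WT (horizontal axes, with standard error bars), by role. Filled points passed an adjusted p of 0.05, which is the case for 10 genes in the first panel, all to the left of 0, for 22 in the second and for 4 in the third, all to the right of 0.

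The 29 genes together took 0.541% and 0.529% of all counts in WT. Their share was 0.598% and 0.579% in AM and 0.389% and 0.321% in 6WP, so the groups did not overlap in this share. Per kilobase of the canonical transcript, mean levels in WT cells ran from 336 CPM per kb for FDFT1, the squalene synthase, and 295 for FDPS, the farnesyl pyrophosphate synthase, to 0.609 for ABCG1 and 0.366 for ABCA1. The sterol sensor partner INSIG2 was also low, at 3.31 CPM per kb against 79.0 for INSIG1.

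**Figure D2:**
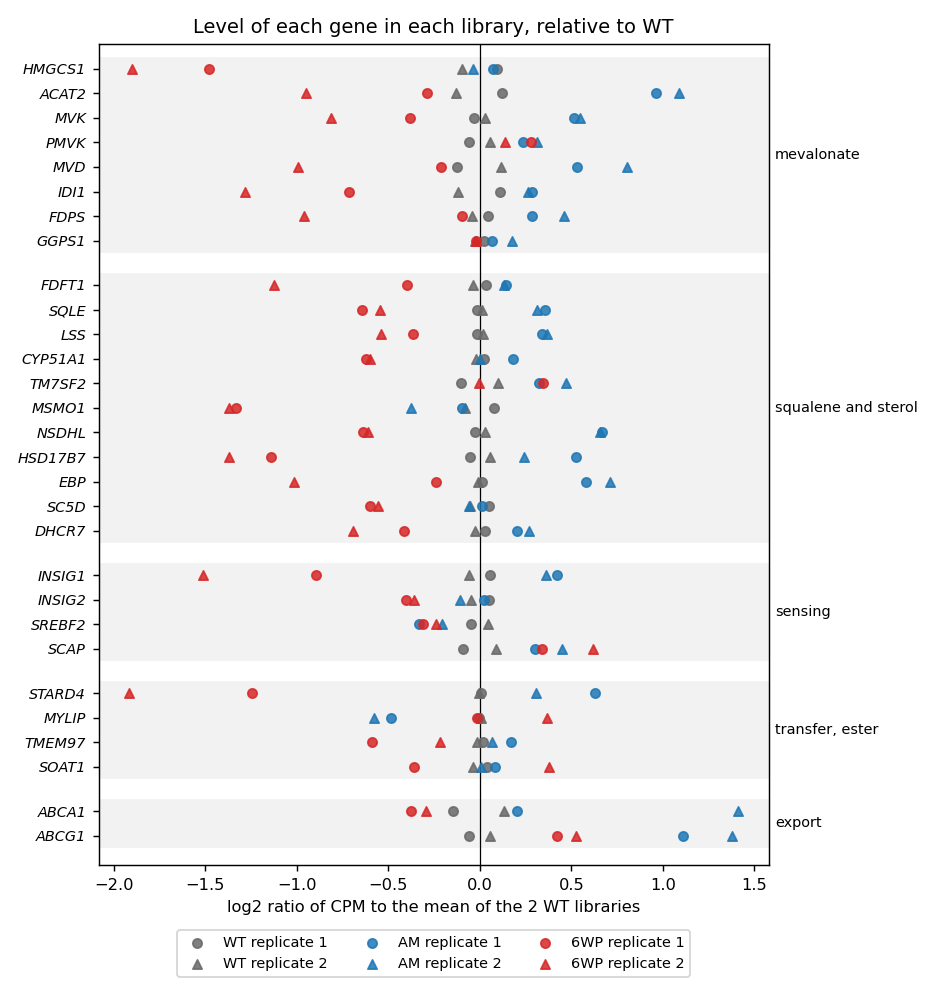
Level of each gene in each of the 6 libraries, as the log2 ratio of its TMM-normalized CPM to the mean of the WT libraries (horizontal axis), by role. The red 6WP points of HMGCS1, MSMO1, HSD17B7, INSIG1 and STARD4 lie left of all WT and AM points, and the blue AM points of ACAT2, NSDHL and ABCG1 lie right of all WT points.

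The first steps, from acetyl-CoA to farnesyl pyrophosphate, held the gene with the largest fall against WT among the 29. HMGCS1, which makes HMG-CoA from acetyl-CoA and acetoacetyl-CoA, is at chr5:43287470-43313512 (minus strand, GRCh38). It stood at 571 and 502 CPM in WT, 565 and 523 in AM and 193 and 144 in 6WP. Both 6WP values lay below every other library, while WT and AM overlapped. The mean went from 537 ± 49.2 in WT and 544 ± 29.5 in AM to 168 ± 34.5 CPM in 6WP (SD, n = 2 each), a level 0.313 times that of WT. The log2 fold change was -1.67 against WT (standard error, SE, 0.16, adjusted p = 0.00493) and -1.69 against AM (SE 0.16, adjusted p = 0.00202). ACAT2, the cytosolic thiolase that forms acetoacetyl-CoA, was at 132 and 111 CPM in WT, 237 and 258 in AM and 99.4 and 62.8 in 6WP. The AM libraries were the highest and the 6WP libraries the lowest, without overlap. ACAT2 rose 2.04-fold in AM over WT (adjusted p = 0.0155) and fell in 6WP against AM with a log2 fold change of -1.61 (adjusted p = 0.00386), whereas its value of -0.58 in 6WP against WT did not pass (adjusted p = 0.150).

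The kinases and the decarboxylase of the mevalonate steps divided. MVK, which phosphorylates mevalonate, was at 43.4 and 45.2 CPM in WT, 63.3 and 64.6 in AM and 34.0 and 25.2 in 6WP. Its groups did not overlap, with AM highest. It rose in AM (log2 fold change 0.53, adjusted p = 0.0452) and fell in 6WP against AM (-1.11, adjusted p = 0.00460). The rise passed in 7 of 15 alternatives and was lost with upper quartile scaling, with library size only, with at least 10 counts required in every library and when any single WT or AM library was left out, and the fall was lost without either AM library. PMVK, the next kinase, was at 99.1 and 107 CPM in WT, 122 and 128 in AM and 125 and 114 in 6WP, and passed in no comparison. Its 6WP libraries were not below WT. MVD, which removes a carboxyl group to give isopentenyl pyrophosphate, was at 36.9 and 43.6 CPM in WT, 58.0 and 70.2 in AM and 34.7 and 20.2 in 6WP, and fell against AM (log2 fold change -1.23, adjusted p = 0.0130). The 6WP replicate 1 was close to the lower WT library, and the value of -0.55 against WT did not pass (adjusted p = 0.223).

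IDI1, the isomerase that turns isopentenyl into dimethylallyl pyrophosphate, was at 243 and 206 CPM in WT, 273 and 269 in AM and 136 and 92.2 in 6WP. Both 6WP libraries lay below the other groups. It fell against WT (log2 fold change -0.97, SE 0.18, adjusted p = 0.0356) and against AM (-1.25, adjusted p = 0.00561). The call against WT was lost without either WT library and without either AM library. FDPS, which joins the isoprene units to farnesyl pyrophosphate, was at 431 and 405 CPM in WT, 510 and 574 in AM and 390 and 215 in 6WP. In 6WP, replicate 1 was close to WT and replicate 2 far below it. FDPS fell against AM with a log2 fold change of -0.84 (adjusted p = 0.0416), which became -1.34 without 6WP replicate 1 and -0.51 without 6WP replicate 2. GGPS1, which extends the chain towards geranylgeranyl pyrophosphate for protein prenylation and so leaves the sterol branch, stayed between 82.7 and 95.1 CPM in all 6 libraries, and its 6WP values of 82.8 and 82.9 lay within the WT range. Of the 8 genes of these first steps, 2 fell against WT, 6 fell against AM and 2 rose in AM against WT. The shares of all tested genes for these calls were 1.37%, 9.68% and 7.74%.

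The sterol branch proper starts with FDFT1, and 6 of its 11 genes fell against WT and 10 against AM, TM7SF2 being the exception in the latter. Of all tested genes 1.37% fell against WT and 9.68% against AM. FDFT1, the squalene synthase, was at 700 and 667 CPM in WT, 753 and 748 in AM and 519 and 313 in 6WP. Both 6WP libraries were below the other groups but far from each other. The value of -0.72 against WT did not pass (adjusted p = 0.101), and that of -0.85 against AM did (adjusted p = 0.0254) but became -0.56 without 6WP replicate 2. SQLE, the squalene epoxidase and a controlled step of the pathway, was at 149 and 152 CPM in WT, 193 and 187 in AM and 96.6 and 103 in 6WP. Its replicates lay close together in every group and no groups overlapped. SQLE fell to 0.662 times the WT level (log2 fold change -0.59, SE 0.10, adjusted p = 0.0270) and to 0.526 times the AM level (adjusted p = 0.00235). LSS, which closes the rings to lanosterol, was at 101 and 104 CPM in WT, 130 and 132 in AM and 79.5 and 70.3 in 6WP. It passed against AM (log2 fold change -0.80, adjusted p = 0.00447) and had -0.45 against WT (adjusted p = 0.0674).

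CYP51A1, the lanosterol demethylase, was at 534 and 518 CPM in WT, 596 and 526 in AM and 342 and 347 in 6WP. The 6WP libraries were alike and below the rest. It fell against WT (log2 fold change -0.61, adjusted p = 0.0305) and against AM (-0.71, adjusted p = 0.00651). TM7SF2, a sterol reductase of the step that follows, was at 95.6 and 110 CPM in WT, 129 and 142 in AM and 130 and 102 in 6WP, and it passed in no comparison. MSMO1, the methyl oxidase that removes the methyl groups next, was at 291 and 260 CPM in WT, 257 and 212 in AM and 109 and 106 in 6WP. Here the AM libraries were not above WT, and the 6WP libraries lay far below both. MSMO1 went from 275 ± 22.0 to 108 ± 2.14 CPM (SD, n = 2 each), which on the log2 scale was -1.35 against WT (SE 0.13, adjusted p = 0.00493), and it had -1.12 against AM (adjusted p = 0.00272). MSMO1 is at chr4:165327667-165343164 (plus strand).

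NSDHL, the dehydrogenase that works with MSMO1, was at 37.1 and 38.5 CPM in WT, 60.0 and 59.6 in AM and 24.3 and 24.7 in 6WP. The replicates almost coincided and the groups were apart in the order AM, WT, 6WP. NSDHL rose in AM (log2 fold change 0.66, adjusted p = 0.00845), fell in 6WP against AM (-1.29, adjusted p = 0.00174) and fell in 6WP against WT (-0.62, SE 0.11, adjusted p = 0.0287). It was the only member that passed in all 3 comparisons. HSD17B7, the ketoreductase of the same complex, was at 25.9 and 28.0 CPM in WT, 38.7 and 31.9 in AM and 12.2 and 10.4 in 6WP. It fell to 0.421 times WT (log2 fold change -1.25, SE 0.16, adjusted p = 0.00882) and to 0.321 times AM (adjusted p = 0.00202). The table also lists its pseudogene HSD17B7P2, with 13 to 48 counts per library, so a share of its reads could be split between them.

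The last steps shift and reduce the double bonds of the sterol rings. EBP, the sterol isomerase, was at 157 and 155 CPM in WT, 233 and 255 in AM and 132 and 77.0 in 6WP. It was highest in AM, and its 6WP libraries were far apart. EBP fell against AM (log2 fold change -1.23, adjusted p = 0.0101), and its values of -0.58 in 6WP against WT (adjusted p = 0.174) and 0.65 in AM against WT (adjusted p = 0.0750) did not pass. SC5D, the desaturase, was at 127 and 118 CPM in WT, 124 and 118 in AM and 81.0 and 83.5 in 6WP, and fell by nearly the same amount against both (log2 fold changes -0.58, adjusted p = 0.0315, and -0.55, adjusted p = 0.0113). WT and AM overlapped in SC5D. DHCR7, the reductase that ends one branch of the pathway in cholesterol, was at 223 and 215 CPM in WT, 252 and 264 in AM and 164 and 135 in 6WP. It passed against AM (log2 fold change -0.79, adjusted p = 0.00644) and lay just outside the threshold against WT (-0.55, adjusted p = 0.0542). The calls of SQLE, CYP51A1, NSDHL and SC5D against WT were lost without either WT library and without either AM library, and those of MSMO1 and HSD17B7 without either WT library.

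Among the 4 genes of sterol sensing only INSIG1 passed, and it is itself a known SREBP2 target. INSIG1 (chr7:155297776-155310235, plus strand) was at 239 and 220 CPM in WT, 308 and 295 in AM and 124 and 80.3 in 6WP. The groups did not overlap. It went from 230 ± 13.3 in WT to 102 ± 30.6 CPM in 6WP (SD, n = 2 each), a log2 change of -1.17 (SE 0.19, adjusted p = 0.0222), and had -1.56 against AM (adjusted p = 0.00338). Its call against WT was lost without either WT library and without either AM library. INSIG2, its partner with the same role, was at 12.2 and 11.4 CPM in WT and 8.90 and 9.20 in 6WP, with 11.5 ± 0.719 in AM (SD, n = 2). Its log2 fold changes in 6WP of -0.38 against WT and -0.34 against AM did not pass (adjusted p = 0.193 and 0.142). SREBF2, which encodes SREBP2 itself, was at 497 and 530 CPM in WT, 408 and 445 in AM and 414 and 435 in 6WP. AM and 6WP overlapped, with a log2 fold change of -0.01 between them (adjusted p = 0.967), and the difference of 6WP from WT was -0.27 (adjusted p = 0.185). SCAP, the escort of SREBP2, was at 180 and 204 CPM in WT, 237 and 262 in AM and 243 and 295 in 6WP. Its WT libraries were the lowest, and the log2 fold changes of 0.49 in 6WP and 0.38 in AM against WT did not pass (adjusted p = 0.0882 and 0.0848). These are transcript levels, and the cutting of SREBP2 was not measured.

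The 4 genes of transfer, receptor turnover and storage went different ways. STARD4, which carries cholesterol between membranes inside the cell, had the largest fall of the 29 genes against AM. It is at chr5:111496033-111512590 (minus strand) and was at 39.9 and 39.6 CPM in WT, 61.4 and 49.3 in AM and 16.7 and 10.5 in 6WP. The 6WP libraries were below all others and the AM libraries above WT. STARD4 fell to 0.343 times WT (log2 fold change -1.54, SE 0.22, adjusted p = 0.0148) and to 0.247 times AM (log2 fold change -2.02, SE 0.22, adjusted p = 0.00233). The call against WT was lost without either WT library. TMEM97, a sterol-responsive protein of the ER and lysosome, was at 136 and 133 CPM in WT, 151 and 141 in AM and 89.4 and 116 in 6WP. Its 6WP replicate 1 was the lower one, unlike in 16 of the 22 SREBP2 target genes. TMEM97 fell against AM (log2 fold change -0.51, adjusted p = 0.0347), which became -0.34 without 6WP replicate 1, and had -0.39 against WT (adjusted p = 0.152). SOAT1, which esterifies cholesterol for storage in droplets, was at 139 and 132 CPM in WT, 143 and 136 in AM and 106 and 176 in 6WP. The 6WP libraries enclosed both other groups, and no direction can be given for SOAT1. MYLIP, an LXR target that marks lipoprotein receptors for destruction, was at 11.5 and 11.6 CPM in WT, 8.22 and 7.71 in AM and 11.4 and 14.8 in 6WP. It was lowest in AM, rose in 6WP against AM (log2 fold change 0.72, adjusted p = 0.0254) and had 0.19 against WT (adjusted p = 0.565). The rise was lost when any single WT or AM library was left out.

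The export pumps were the least abundant of the 29 genes. ABCG1, which passes cholesterol to high-density lipoprotein, is at chr21:42199689-42297244 (plus strand) and was at 1.74 and 1.88 CPM in WT, 3.92 and 4.71 in AM and 2.42 and 2.61 in 6WP. The groups were apart in the order WT, 6WP, AM. ABCG1 rose 2.39-fold in AM over WT (log2 fold change 1.25, SE 0.24, adjusted p = 0.0137), and it fell in 6WP against AM (-0.78, adjusted p = 0.0441). That fall passed in 6 of 15 alternatives and was lost when any single WT or AM library was left out, with DESeq2 and with upper quartile scaling. Against WT its 6WP value of 0.47 did not pass (adjusted p = 0.303). ABCA1, which loads cholesterol onto lipid-poor apolipoprotein, is at chr9:104781006-104928155 (minus strand) and was at 3.44 and 4.18 CPM in WT, 4.39 and 10.1 in AM and 2.93 and 3.10 in 6WP. One library, AM replicate 2, held the high value. ABCA1 fell in 6WP against AM (log2 fold change -1.28, SE 0.37, adjusted p = 0.0422), which became -0.54 without AM replicate 2, and its value in AM against WT of 0.95 (adjusted p = 0.108) became 0.19 without it.

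**Figure D3:**
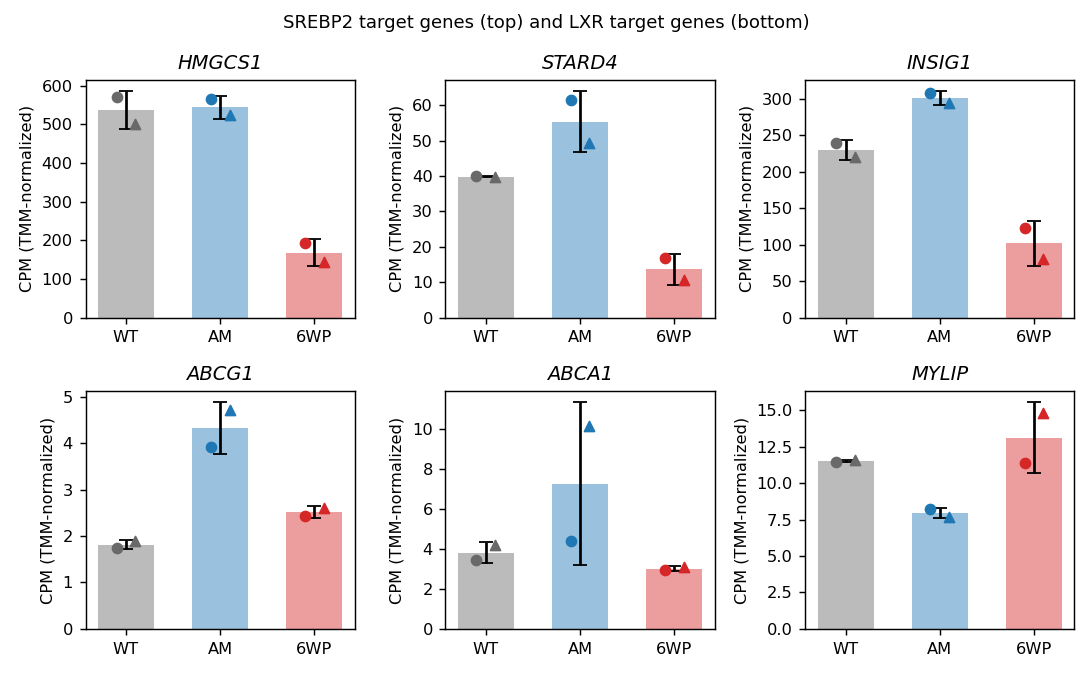
TMM-normalized CPM (vertical axes, linear from 0) of the SREBP2 target genes HMGCS1, STARD4 and INSIG1 in the upper row and the LXR target genes ABCG1, ABCA1 and MYLIP in the lower row; bars are means, error bars SD and points the 2 libraries of each group. In the upper row 6WP is lowest, while in the lower row the 6WP mean lies nearer to WT than to AM, which is higher in ABCG1 and, in 1 library, in ABCA1, and lower in MYLIP.

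The 22 SREBP2 target genes and the 2 export genes can be set side by side. In 6WP cells against WT, 10 of 22 SREBP2 target genes fell and neither export gene passed, with medians of -0.58 and 0.07. Of all tested genes 1.37% fell and 1.63% rose in that comparison. In 6WP cells against AM both medians were close to -1 on the log2 scale, with 19 of 22 target genes and both export genes lower. There 9.68% of all tested genes fell. The export value rests on few libraries: ABCA1 had -0.54 in place of -1.28 without AM replicate 2, and both export calls were lost with upper quartile scaling, with only the 2 groups compared and without either WT library. In AM cells against WT, 3 of 22 target genes and 1 of 2 export genes rose, beside 7.74% of all tested genes. The difference between the lists was not tested, and a median of 2 genes is only the mean of both. Of the 3 LXR targets in AM against WT, ABCG1 rose, while ABCA1 (0.95, adjusted p = 0.108) and MYLIP (-0.53, adjusted p = 0.0733) did not pass.

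The 6WP libraries differed more from each other in these genes than the libraries of the other groups did. Relative to the WT mean, the median of the 22 SREBP2 target genes was -0.50 in 6WP replicate 1 and -0.88 in replicate 2 on the log2 scale, against 0.30 and 0.31 in the AM libraries. The value was below 0 for 20 and 21 of the 22 genes in these 6WP replicates, for 9 and 13 in the WT libraries and for 2 and 4 in the AM libraries. The share of all tested genes below 0 was not computed. Replicate 2 was the lower of the pair in 16 of 22, with a median difference of -0.31 where that of all genes was -0.01. FDPS was 1.81 times, MVD 1.72 times, EBP 1.71 times and FDFT1 1.66 times higher in 6WP replicate 1 than in replicate 2. By contrast SQLE, CYP51A1, NSDHL, SC5D and MSMO1 differed by ratios of only 0.935, 0.986, 0.981, 0.970 and 1.03. The prostate marker TMPRSS2 (42.0 and 116 CPM) also differed between these libraries, and its part in the result was not tested.

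**Figure D4:**
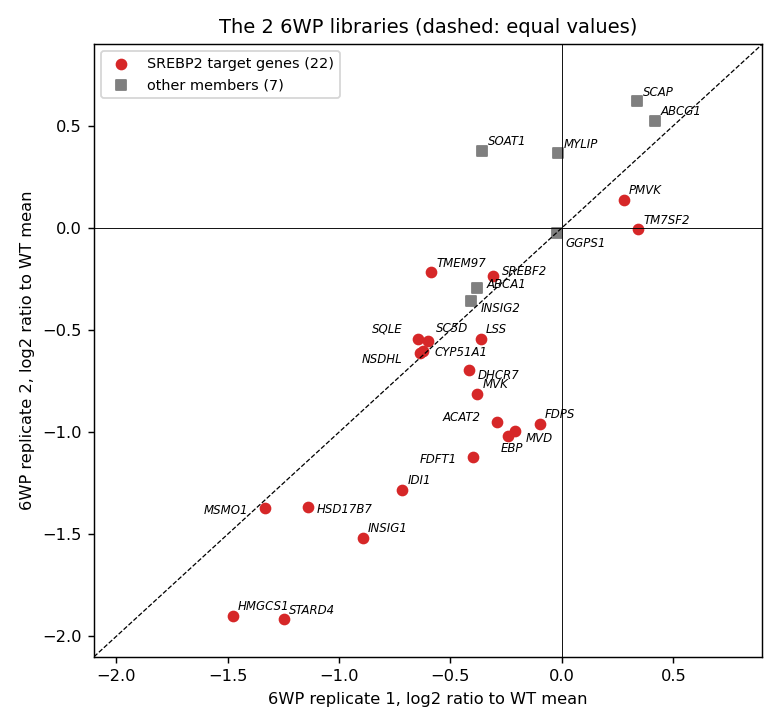
Each of the 29 genes in 6WP replicate 1 (horizontal axis) and 6WP replicate 2 (vertical axis), as the log2 ratio of CPM to the WT mean; circles are the 22 SREBP2 target genes, squares the 7 others and the dashed line marks equal values. Most circles lie at the lower left, below 0 on both axes, and 16 of the 22 lie below the dashed line, with HMGCS1 and STARD4 lowest.

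Other genes of sterol and isoprenoid metabolism, read from lists compiled from general knowledge, are given by their counts. Of 14 tested genes for SREBP processing and sterol-regulated degradation, none passed in 6WP against WT with edgeR's quasi-likelihood test, with 2 lower and 1 higher at an unadjusted p under 0.05 and 0 with DESeq2 and with the likelihood ratio test. Their median log2 fold change was -0.06. Against AM 3 fell and 1 rose, where 9.68% of all tested genes fell and 11.7% rose. The 3 that fell were the ER ubiquitin ligase SYVN1 (log2 fold change -0.69, adjusted p = 0.00759), UFD1L (-0.86, adjusted p = 0.0129) and AUP1 (-0.63, adjusted p = 0.0150), which take part in ER-associated degradation. In AM against WT, SYVN1 and UFD1L rose (0.53 and 0.66) and TRIM21 fell (-1.17), beside 7.74% and 9.93% of all tested genes. The gene that rose against AM was RNF145, a ubiquitin ligase of sterol-regulated degradation (0.51), named after its value was seen.

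Among 8 tested genes of LXR and its targets outside the 29, PLTP, the phospholipid transfer protein, rose in 6WP against WT from 65.7 ± 1.94 to 107 ± 0.702 CPM (SD, n = 2 each; log2 fold change 0.70, adjusted p = 0.0157). It also rose in AM against WT (0.45, adjusted p = 0.0234). SREBF1, which encodes the lipogenic factor SREBP1, rose in AM against WT (0.58, adjusted p = 0.0379) and fell in 6WP against AM (-0.96, adjusted p = 0.00742). NR1H3, which encodes an LXR, fell in 6WP against AM (-0.67, adjusted p = 0.0252), and RXRB, a partner receptor, rose (0.53, adjusted p = 0.0155).

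Of 26 tested genes of sterol transport and storage, none passed in 6WP against WT with edgeR's quasi-likelihood test, with 2 lower and 2 higher at an unadjusted p under 0.05 and 0 with DESeq2 and with the likelihood ratio test. Against AM 2 of the 26 fell and 3 rose, close to the 9.68% and 11.7% of all tested genes, so these counts do not set the list apart. NCEH1, which hydrolyses cholesteryl ester, fell (log2 fold change -0.87, adjusted p = 0.00672), and the oxysterol-binding protein gene OSBPL6 (1.06, adjusted p = 0.00565) and the ER sterol transporter GRAMD1A (1.15, adjusted p = 0.00932) rose. SCARB1, the receptor for high-density lipoprotein, also fell (-0.43) and OSBPL9 rose (0.48), both named after their values were seen. In AM against WT 2 of the 26 rose and 4 fell, where 7.74% of all tested genes rose and 9.93% fell. Among them NCEH1 was at 1.25, GRAMD1C at -1.71 and CYP7B1, an oxysterol hydroxylase near the floor, at -2.12.

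Of 17 tested genes for the use of isoprenoids, none passed in 6WP against WT with edgeR's quasi-likelihood test, with 1 lower and 1 higher at an unadjusted p under 0.05 and 0 with DESeq2 and with the likelihood ratio test. Against AM 4 of the 17 fell, beside 9.68% of all tested genes, and none rose, beside 11.7% (0 also at an unadjusted p under 0.05 and with DESeq2 and the likelihood ratio test). They included the dolichol kinase DOLK (log2 fold change -0.66, adjusted p = 0.00857), the prenylcysteine methyltransferase ICMT (-0.62, adjusted p = 0.0101) and NUS1, a subunit of the dolichol-making enzyme (-0.65, adjusted p = 0.0152). The other one, named after its value was seen, was the protease ZMPSTE24 (-0.54). In AM against WT 3 of the 17 rose and 1 fell, where 7.74% of all tested genes rose and 9.93% fell. DOLK and ICMT were among those that rose (0.58 and 0.48), and CHML, a prenylation escort, fell (-0.47). The list medians were -0.08 in 6WP against WT, -0.23 in 6WP against AM and 0.21 in AM against WT.

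The kit used for the libraries keeps the strand, but whether strand was used in counting is not given in the sources used here. Exons of 12 of the 29 genes overlap exons of a gene on the opposite strand, HMGCS1, ACAT2, MVK, IDI1, FDPS, GGPS1, FDFT1, LSS, CYP51A1, SREBF2, STARD4 and TMEM97. Exons of GGPS1, CYP51A1, TM7SF2 and EBP overlap a gene on the same strand, which for TM7SF2 is VPS51. Values of these genes are uncertain to that extent, whereas MSMO1, NSDHL, HSD17B7, SC5D, SQLE, INSIG1, ABCA1 and ABCG1 have no such overlap.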

How the data were processed

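The labels name a stranded TruSeq preparation, and the design text names single end reads of 100 bp. Per the submitters' processing notes and the study's methods, the authors used STAR 2.5.3a, StringTie 1.3.3, featureCounts 1.5.3, edgeR 3.22.3 and R 3.5.0 on hg38. What the authors deposited is 1 table of unnormalized read counts by gene symbol for 6 libraries, and 0 columns were left out. The gene annotation, the strand setting and the handling of reads with several matches are not given in the sources used here.

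From these counts, values were computed in R 4.3.3 with DESeq2 1.42.0, limma 3.58.1 and edgeR 4.0.16. The filterByExpr function of edgeR kept 14672 of 29804 genes, TMM factors were computed, and all 6 libraries entered 1 quasi-likelihood fit with group as its only term. 3 comparisons were tested, two-sided, with Benjamini-Hochberg adjustment over all tested genes and a threshold of 0.05. Standard errors were taken as the size of the log2 fold change over the root of F. Since exact permutation reaches no p under 0.333 with 2 libraries a group, p-values rest on the model. The labels call the libraries biological replicates without saying whether they are separate cultures, so p-values measure the spread between these libraries.

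Samples were grouped by their labels. All 29 members are named, and from the other lists the at most 3 genes with the smallest p among those that passed. The members and lists were chosen with earlier results of these data known. The degradation and the isoprenoid list share 1 gene. Values of some single genes of the lists are not reported here. Alternatives were other scalings, other filters on low counts, DESeq2's Wald test, edgeR's likelihood ratio test, a replicate block, leaving out each library in turn, and fitting only the 2 groups compared. The steps were tested on simulated counts. Positions and canonical transcript lengths are from GENCODE on GRCh38, promoters from RefSeq on GRCh38.p14.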

Additional observations from a re-analysis of the deposited data

How the results depend on the processing

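Over the 15 alternatives, the median log2 fold change of the 22 SREBP2 target genes kept its sign in all 3 comparisons. With single libraries left out it ranged from -0.90 to -0.53 in 6WP against WT, from -1.27 to -0.92 in 6WP against AM and from 0.29 to 0.36 in AM against WT. The members lower in 6WP against WT, 10 in the main analysis, ranged from 0 to 18 with single libraries left out and were 4 with only the 2 groups compared. The members higher ranged from 0 to 2 and were 1 with DESeq2 and 1 with the likelihood ratio test. In 6WP against AM, 7 to 22 members were lower and 0 to 2 higher with single libraries left out, and 0 were higher with only the 2 groups compared. In AM against WT, 0 to 18 members were higher and 0 to 3 lower with single libraries left out. With only the 2 groups compared 18 were higher and 2 lower, beside 3390 and 3230 genes of the whole table. With DESeq2 8 were higher, and with upper quartile scaling or the likelihood ratio test 1 was lower. Leaving out a 6WP library removes, by construction, the spread between the 6WP libraries from the estimate shared by all groups, and leaving out a WT or AM library removes a smaller one. More genes of the whole table also passed in all 3 comparisons when a 6WP library was left out. Fewer passed when a WT or AM library was left out. SOAT1 reversed with 6WP replicate 2 left out and kept its sign with replicate 1 left out, ranging from -0.38 to 0.36 in 6WP against WT and from -0.43 to 0.33 in 6WP against AM (0.06 and 0.01 with all libraries). The cause of the difference between the 6WP libraries was not tested.

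With the replicate block, 10 members were lower in 6WP against WT, 20 lower and 1 higher in 6WP against AM, and 3 higher in AM against WT. The block ended the calls of ABCG1 in 6WP against AM and of MVK in AM against WT, and no other call of a member. Deviations of same-numbered libraries correlated across genes at 0.04 (WT and AM), 0.09 (WT and 6WP) and -0.02 (AM and 6WP). With 2 libraries a group, these values cannot tell whether such libraries were handled together, so the lost calls of ABCG1 and MVK stay uncertain.

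Depth limits the export genes most, at 1.74 to 10.1 CPM against a floor of at most 0.138 CPM. The counts carry no protein or sterol level.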
